A study of Mus musculus with 2 samples.

Results

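The microRNA genes Mir335, Mir483, Mir675, Mir296 and Mir298 lie in or beside the imprinted genes Mest, Igf2, H19 and Nespas. They were taken by symbol from the gene annotation, and all 5 were among the 1973 genes measured. Small RNA with inserts under 30 bases had been sequenced from the intestine of B6NCrl mouse embryos at 14.5 days of development. The series holds 1 group with 2 biological replicates and no second condition, so levels are described and no treatment or genotype is compared. The labels call each sample a single intestine of 1 pup, yet give the sex as males and females pooled, and the counts do not settle which holds. Replicate 1 was collected on day 17 and replicate 2 on day 15 of the month, so replicate and collection day cannot be told apart.

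Imprinted genes are transcribed mainly from the allele of one parent. Mest, Igf2 and the Gnas antisense transcript Nespas are known in the mouse as paternally expressed genes, and H19 as a maternally expressed one. Igf2 encodes a fetal growth factor and H19 a long non-coding RNA, and both are known from the mesoderm and endoderm of the embryo. A microRNA is cut from a hairpin precursor into a short strand from either arm, 5p or 3p, and pairs with messenger RNAs chiefly through its seed, bases 2 to 8. The counts here are per gene, so the arms cannot be told apart, and neither can the parental alleles.

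The mature strands are shown because their seeds, in capitals, set which messenger RNAs each can pair with. All 5 genes and 10 mature strands were matched by symbol in the RefSeq table for GRCm38.p6, written 5′ to 3′.
mmu-miR-335-5p: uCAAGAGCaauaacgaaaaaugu
mmu-miR-335-3p: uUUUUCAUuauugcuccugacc
mmu-miR-483-5p: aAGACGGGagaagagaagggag
mmu-miR-483-3p: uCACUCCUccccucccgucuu
mmu-miR-675-5p: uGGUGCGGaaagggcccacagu
mmu-miR-675-3p: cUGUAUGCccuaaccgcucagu
mmu-miR-296-5p: aGGGCCCCcccucaauccugu
mmu-miR-296-3p: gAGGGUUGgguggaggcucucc
mmu-miR-298-5p: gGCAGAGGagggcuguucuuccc
mmu-miR-298-3p: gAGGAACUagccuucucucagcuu

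None of the 10 seeds was shared among the 5 genes or with any other gene of the 1058 that have a mature strand in that table. Each gene was therefore alone in its seeds. The same held for 141 of 334 detected genes with a mature strand, or 42.2%. The strands also differed in composition. Of the 23 bases of miR-335-5p, 52.2% were A and 30.4% were G or C. In miR-483-5p, 95.5% of the bases were purines, while its partner miR-483-3p held 9.52% purines and 57.1% C. The strand miR-296-5p carried an unbroken run of 7 C, the longest single-base run among the 10.

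Mir296 and Mir298 are close neighbours but not copies of each other, as their hairpins show, with the mature arms in capitals.
Mir296: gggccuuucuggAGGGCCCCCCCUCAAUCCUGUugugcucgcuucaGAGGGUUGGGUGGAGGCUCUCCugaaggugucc
Mir298: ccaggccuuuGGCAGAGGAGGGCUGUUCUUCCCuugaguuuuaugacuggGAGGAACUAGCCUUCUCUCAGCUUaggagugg
A global alignment of this pair held 49 identical bases in 98 columns (50%), within the range of 41.1% to 53.8% over all 10 pairs of the 5 hairpins. On either strand, none of the 5 hairpins had 20 consecutive bases in common with a RefSeq or GENCODE microRNA hairpin elsewhere. In the annotated transcripts, the mature strands of Mir675 were also found in H19 transcripts, and the other 8 strands in none but their own hairpin. The whole genome was not searched.

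Each gene lies on the strand of the gene it is named with here, in an intron, in an exon or beyond its annotated end (GRCm38 coordinates). Mir335 (ENSMUSG00000065501.1, chromosome 6, 30741299 to 30741396, plus strand) lies in an intron of all 7 Mest transcripts that span it. Mir483 (ENSMUSG00000070140.1, chromosome 7, 142654924 to 142654996, minus strand) lies in an intron of all 7 Igf2 transcripts that span it, and also within the overlapping gene Gm49394 on the same strand. Mir675 (ENSMUSG00000076275.1, chromosome 7, 142577064 to 142577147, minus strand) lies in an exon of 3 of the 4 H19 transcripts that span it. Short fragments of H19 RNA from that exon would count for Mir675, and the tables do not separate them. Mir483 and Mir675 are 77.8 kb apart.

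Mir296 (ENSMUSG00000065521.1, chromosome 2, 174267047 to 174267125, minus strand) and Mir298 (ENSMUSG00000065410.1, 174267504 to 174267585, minus strand) are separated by 378 bases. In the annotation used, GENCODE M21, both lie outside every other gene. They fall 14.1 kb and 13.7 kb past the annotated end of Nespas, so their placement in that transcript rests on background knowledge and not on this annotation.

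**Figure D1:**
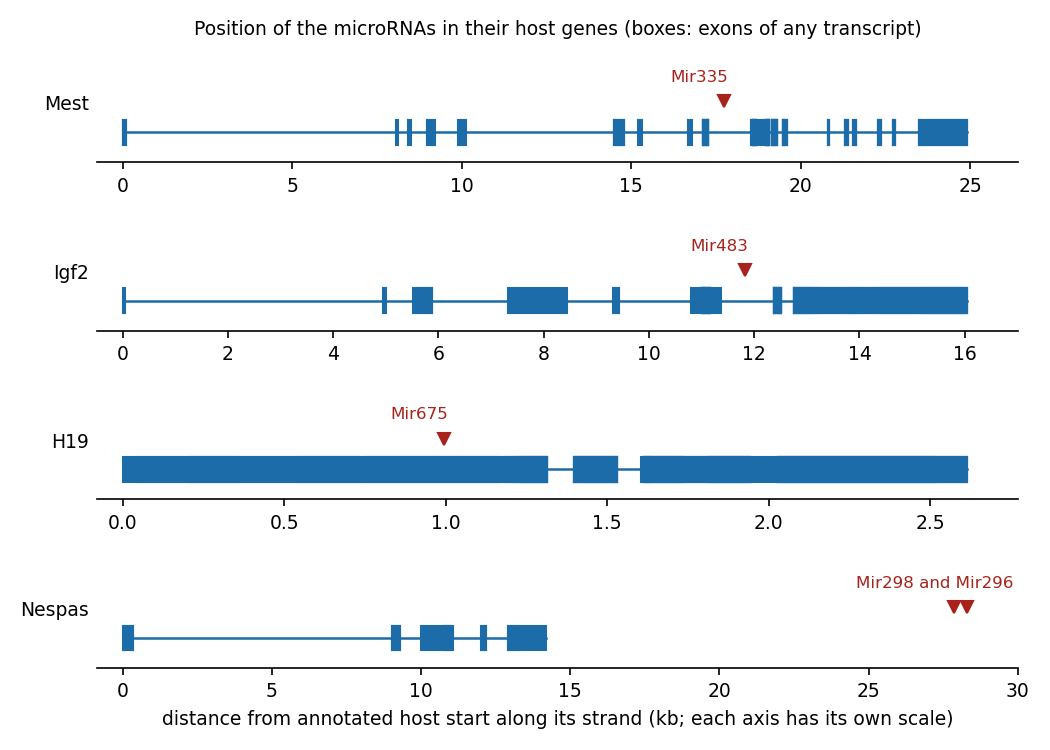
The horizontal axis of each row is the distance in kb from the annotated start of the host gene along its strand, boxes are exons of any transcript, and triangles mark the 5′ ends of the microRNA genes. Mir335 and Mir483 sit between exons, Mir675 within an exon of H19, and Mir298 and Mir296 beyond the annotated end of Nespas, at 27.9 and 28.3 kb.

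All 5 microRNAs were present in the embryonic intestine, at levels that spanned 330-fold. Levels are given as CPM, counts on the gene's strand per 1000000 such counts over all genes, as mean ± SD of the libraries (n = 2). Mir335 stood far above the others, at 52828 ± 2999 CPM. Mir296 followed at 4441 ± 284 CPM, Mir298 at 3298 ± 343 CPM, Mir483 at 2063 ± 105 CPM and Mir675 at 160 ± 10.6 CPM. This order was the same in both libraries, and no range of one gene met that of the next. Together the 5 genes took 6.02% of the counts in replicate 1 and 6.54% in replicate 2, a mean of 6.28 ± 0.372%. Nearly every read lay on the gene's own strand: 2 of the 5 genes, Mir335 and Mir675, had any count on the opposite strand, as did 11.3% of detected genes. Because ligation and PCR take up short sequences unequally, a level here compares read counts and not molecules between microRNAs.

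**Figure D2:**
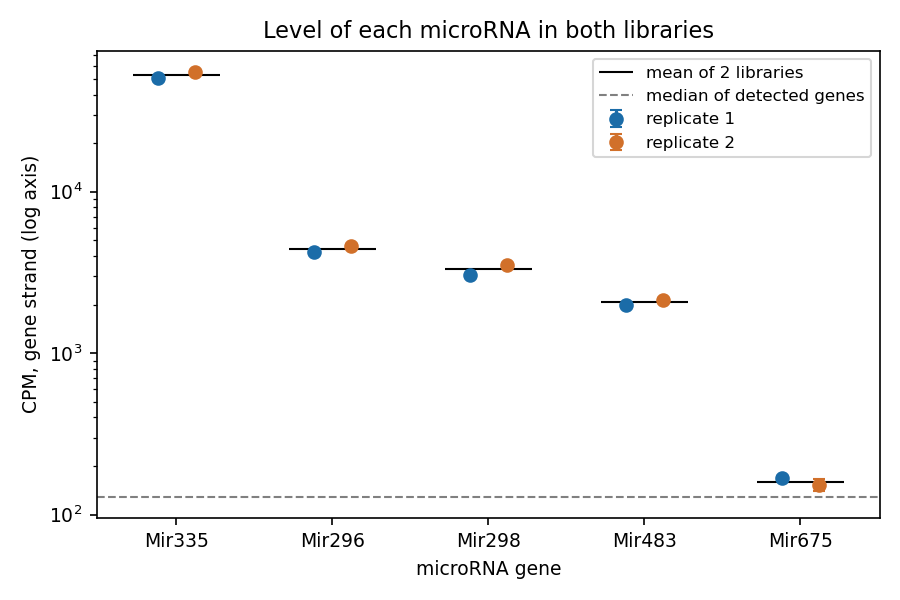
The vertical log axis gives CPM on the gene's strand for each microRNA gene, with 1 point per library, its 95% Wilson counting interval, a line at the mean of both libraries and a dashed line at the median of the 363 detected genes. The genes fall into the same order in both libraries, and Mir675 alone lies near the dashed line at 129 CPM.

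Mir335, from the Mest intron, is known in human breast cancer as a suppressor of metastasis. It had 765171 counts in replicate 1 and 214490 in replicate 2, or 50707 and 54949 CPM. These were 5.07% of the counts in replicate 1 (95% Wilson interval 5.06 to 5.08%) and 5.49% in replicate 2 (5.47 to 5.52%). Both libraries placed it at rank 3 among all genes measured. All 363 detected genes have a microRNA hairpin in GENCODE, so the ranks compare microRNA genes with each other. Ranks hold for reads with a single alignment, since multiply aligned reads (26.5% of replicate 1 and 26.6% of replicate 2) were assigned to no gene and 85 of the 363 detected genes share a stretch of 20 bases with a hairpin elsewhere. Mir335 exceeded the sum of the other 4 genes 5.36-fold in replicate 1 and 5.25-fold in replicate 2 (log2 ratio 2.41 ± 0.02), a gap of 0.03 between libraries. Of the counts of the 5 genes, it held 84.3% in replicate 1 and 84.0% in replicate 2.

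The pair on chromosome 2 was the second most abundant locus of the 4. In mouse embryonic stem cells miR-296 is known to act on messenger RNAs of pluripotency factors, and miR-298 is known to repress the mouse Bace1 messenger RNA. Mir296 had 63983 counts (4240 CPM) in replicate 1 and 18117 (4641 CPM) in replicate 2. Mir298 had 46116 counts (3056 CPM) in replicate 1 and 13821 (3541 CPM) in replicate 2. The neighbours were thus close in level. Mir296 exceeded Mir298 1.39-fold in replicate 1 (95% counting interval 1.37 to 1.40) and 1.31-fold in replicate 2 (1.28 to 1.34). The mean log2 ratio of 0.43 ± 0.06 was larger than its gap of 0.08 between the libraries, although the counting intervals of the libraries did not meet.

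The microRNAs of Igf2 and H19 differed far more, although they lie in one imprinted domain. In human cells miR-483-3p is known to repress the pro-apoptotic gene BBC3, and in the mouse miR-675 is known to limit growth of the placenta. Mir483 had 30013 counts (1989 CPM) in replicate 1 and 8345 (2138 CPM) in replicate 2. Mir675 had 2527 counts (167 CPM) in replicate 1 and 595 (152 CPM) in replicate 2. Mir483 was thus the higher of the pair in both libraries, by 11.9-fold in replicate 1 (95% counting interval 11.4 to 12.4) and 14.0-fold in replicate 2 (12.9 to 15.3). The mean log2 ratio was 3.69 ± 0.17, with a gap of 0.24 between the libraries, whose counting intervals did not meet here either. Mir675 was the rarest of the 5, with 0.278% of their counts in replicate 1 and 0.233% in replicate 2. It also had the fewest counts behind its value, and its 95% Wilson intervals of 161 to 174 CPM in replicate 1 and 141 to 165 CPM in replicate 2 overlapped.

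Set against all detected genes (at least 10 counts in both libraries, 363 of 1973), 4 of the 5 microRNAs lay above at least 79.3% of them and Mir675 above 53.2%. The median detected gene had 129 CPM. Mir335 stood 409-fold above it, Mir296 34.4-fold, Mir298 25.5-fold, Mir483 16.0-fold and Mir675 1.24-fold. By mean level the ranks were 3, 46, 59, 75 and 170 in that order, and no gene moved by more than 2 ranks between the libraries.

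**Figure D3:**
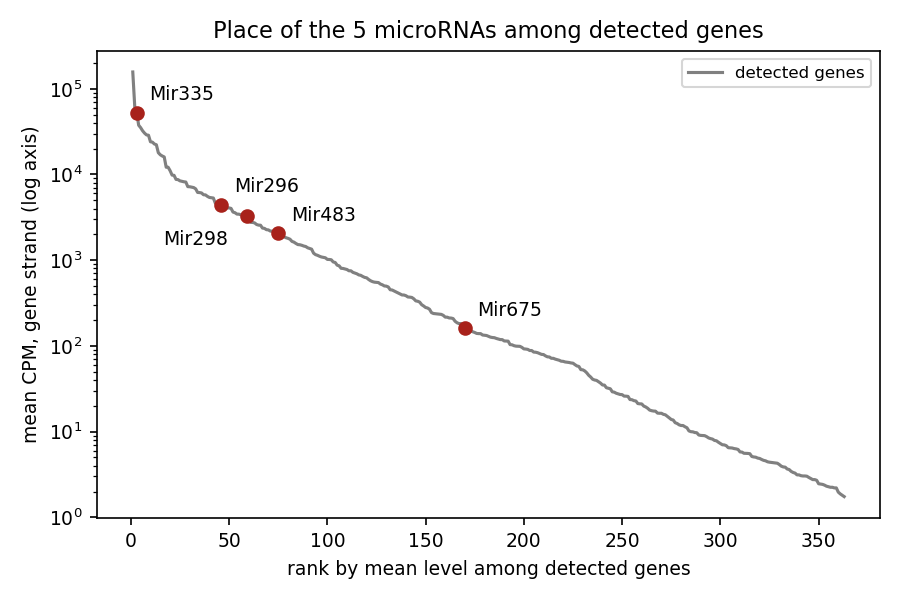
Mean CPM on a log axis is plotted against rank for the 363 detected genes (line), with the 5 microRNA genes as points. Mir335 is on the steep part at rank 3, Mir296, Mir298 and Mir483 lie at ranks 46 to 75, and Mir675 at rank 170.

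The genes next to each in level show how finely these ranks are resolved. Mir335 did not overlap its neighbours: Mir143 (157004 ± 15498 CPM) and Mir10a (62116 ± 4588 CPM) lay above it in both libraries, and Mirlet7g (37548 ± 2206 CPM) and Mir10b (35182 ± 5748 CPM) below it. Around Mir296, by contrast, the ranges of Mir151 (4540 ± 127 CPM), Mir98, Mir369 and Mir203 (4147 ± 164 CPM) all overlapped its own. Mir298 could not be told from Mir382, Mir423 (3364 ± 94.6 CPM) or Mir149 (2967 ± 223 CPM) by range, but lay above Mir381 (2764 ± 125 CPM) in both libraries. The range of Mir483 overlapped those of Mir484 (2089 ± 59.0 CPM), Mir141 (2087 ± 432 CPM), Mir16-1 and Mir101b (2001 ± 153 CPM). Mir675 overlapped Mir34a (160 ± 4.15 CPM), Mir410 and Mir679 (153 ± 3.03 CPM) and lay below Mir138-1 (182 ± 4.44 CPM) in both. Nearness in level says nothing of shared function.

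The libraries differed little in these microRNAs. As log2 of replicate 1 over replicate 2, Mir298 differed by -0.21 (95% counting interval -0.24 to -0.18), Mir296 by -0.13 (-0.15 to -0.11), Mir335 by -0.12 (-0.12 to -0.11), Mir483 by -0.10 (-0.14 to -0.07) and Mir675 by 0.14 (0.01 to 0.27). In none was the higher library more than 25% above the lower, a distance that 23.1% of detected genes exceeded, and the widest was Mir298 at 1.16-fold. The median of the 5 was 1.09-fold apart and that of all detected genes 1.11-fold. The detected genes include many with few counts, where counting error alone can set the libraries further apart. Neither the 23.1% nor the 1.11-fold is therefore matched to the 5 in abundance.

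Counting error alone is small at this depth, so a two-sided exact binomial test of the counts against the library totals passes even slight differences. It compares these 2 libraries and nothing beyond them. After Benjamini-Hochberg adjustment across all 363 genes tested, 4 of the 5 passed, all lower in replicate 1. Of detected genes, 43.8% passed in either direction and 29.8% as lower in replicate 1. The share that passes rises with counts, and was 56.3% of the 277 genes with at least 50 counts in both libraries. The 4 that passed rank from 3 to 75 in level, so these shares are not matched to them in abundance. The adjusted p from this exact binomial test was 4.82e-232 for Mir335, 1.21e-49 for Mir298, 1.45e-25 for Mir296 and 2.93e-08 for Mir483. Mir675 was higher in replicate 1 and did not pass (adjusted p = 0.0837, same exact test). Without any threshold, 62.0% of detected genes were lower in replicate 1.

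The calls of Mir483 and Mir675 depended on the scaling, as did the size of all 5 differences. Under TMM scaling the log2 differences were -0.03 for Mir335, -0.05 for Mir296, -0.13 for Mir298, -0.02 for Mir483 and 0.22 for Mir675. With TMM library sizes Mir483 no longer passed (adjusted p = 0.361, exact binomial test) and Mir675 did (adjusted p = 0.00242), so 1 of the 5 passed as higher and 3 as lower in replicate 1. Among all genes 51 passed as higher and 108 as lower in replicate 1, against 84 and 58 with TMM and 90 and 54 with DESeq2 size factors, which shifted the median by 0.08 and 0.09.

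**Figure D4:**
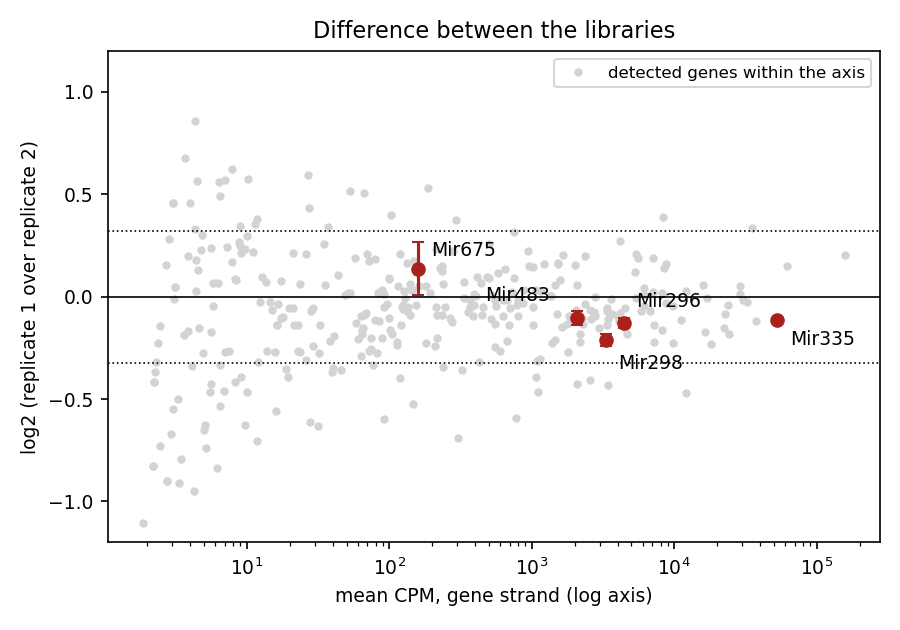
The log2 difference between the libraries is plotted against mean CPM on a log axis, with detected genes in grey, the 5 microRNAs in red with 95% counting intervals, and dotted lines where one library is 25% above the other. The 5 red points lie between the dotted lines, with Mir675 above 0 and the others below it; 7 grey genes fall outside the plotted range.

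Markers of the tissue were present, and most also differed between the libraries. The intestinal epithelial genes Mir192, Mir194-1, Mir194-2 and Mir215 summed to 0.898% of the counts in replicate 1 and 1.14% in replicate 2, with all 4 passing the same test as lower in replicate 1. Reads that fit both Mir194 genes would be multiply aligned and enter no gene, so this sum may be too low. The smooth muscle genes Mir143 and Mir145a summed to 17.2% in replicate 1 and 15.0% in replicate 2, nearly all Mir143. Mir145a did not follow, at 3567 CPM in replicate 1 and 3597 CPM in replicate 2 (adjusted p = 0.512, exact binomial test). The part of the epithelial and smooth muscle genes in the differences of the imprinted microRNAs was not tested. In a whole organ, fewer cells of a type and less RNA per cell cannot be told apart. Of other tissues, striated muscle and liver left few marker counts. Striated muscle genes summed to 165 counts in replicate 1 and 37 in replicate 2, nearly all Mir206, with Mir133a-1 at 0 in both. Mir1a-2 was not among the 4 striated muscle genes measured. Multiply aligned reads entered no gene, so reads that fit both Mir133a genes or both Mir1a genes would be missing here. The low counts of those genes therefore do not show how much striated muscle was present. The liver gene Mir122 stood at 39.8 CPM in replicate 1 and 51.0 CPM in replicate 2. Erythroid genes (Mir451a and Mir144) made up 0.0255% of replicate 1 and 0.0402% of replicate 2. Genes listed as pancreatic summed to 0.350% and 0.807%, nearly all Mir375. Mir375 is also known from enteroendocrine cells of the intestine, so this sum is no measure of pancreas. Without Mir375 the list held few counts, with Mir217 highest at 4.44 CPM in replicate 1 and 7.94 CPM in replicate 2. All 3 detected genes of the list passed the exact test as lower in replicate 1. Mir802 is in none of the marker lists and was chosen here after its values were seen. It had 24 counts in replicate 1 and 533 in replicate 2 (1.59 and 137 CPM), again higher in replicate 2. The tissue it came from was not tested. The part of these markers in the values of the 5 microRNAs was not tested.

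The 5 genes were compared with annotated microRNA genes of the imprinted Dlk1-Dio3 and Sfmbt2 regions. Further imprinted regions were not searched. Of 59 measured genes between Dlk1 and Dio3 on chromosome 12, a region of maternally expressed microRNAs, 46 were detected. Of 107 within Sfmbt2 on chromosome 2, a rodent cluster of many similar hairpins, 10 were detected. Of the Sfmbt2 genes 105 share 20 bases with a hairpin elsewhere, as do 7 of the 59 and none of the 5, so their counts leave out multiply aligned reads and may be too low. All 5 genes of Mest, Igf2, H19 and Nespas were detected, with a median of 3298 CPM, while the detected genes had a median of 444 CPM in the Dlk1-Dio3 region and 216 CPM in Sfmbt2. With Mir335 at their head, the 5 genes carried 6.28 ± 0.372% of the counts, against 7.12 ± 0.169% for the 59 Dlk1-Dio3 genes and 0.373 ± 0.0207% for the Sfmbt2 genes. The highest gene was Mir335 among the 5, Mir127 (9772 CPM) between Dlk1 and Dio3, and Mir467e (1161 CPM) in Sfmbt2. Without Mir335 the other 4 gave 0.996 ± 0.0721%. No test between these lists was run.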

How the data were processed

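The authors deposited 1 table of whole-number read counts per gene for each library. Its 3 count columns were read, from their values, as both strands together, then sense, then antisense. The accompanying files name mm10 and GENCODE M4; the aligner, trimming and counting program are not given in the sources used here. Unaligned reads (12.4% of replicate 1, 13.8% of replicate 2), multiply aligned reads (26.5%, 26.6%) and reads outside the measured genes (2.20%, 2.10%) entered no total. The sense counts summed to 15090126 for replicate 1 and to 3903472 for replicate 2, a 3.87-fold gap in depth, and a count of 0 allows up to 0.199 and 0.769 CPM (3 counts). Intervals, floors and the exact binomial test cover counting error only and treat each read as independent. No molecular identifiers are recorded, so PCR copies cannot be told from separate molecules.

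Symbols and positions came from GENCODE M21 (GRCm38, the same assembly as mm10), matched by identifier without version for 1894 of 1973 genes, and sequences from RefSeq (GRCm38.p6). Tools were Python 3.11.15, scipy 1.17.1, edgeR 4.0.16 and DESeq2 1.42.0 (library sizes only, since 1 group allows no test of conditions), Biopython 1.88 and ViennaRNA RNAfold 2.7.2. The exact binomial test was tested on simulated data. Those data held counting error only, as the test assumes, so they do not show how it behaves with other differences between libraries. Besides the 5 microRNAs, the text names the 2 genes next above and the 2 next below each in mean CPM, markers, and leading or nearby genes chosen after their values were seen. The members, lists and tests were chosen with earlier results of these data known. Alternatives were both strands, TMM or DESeq2 scaling, other totals, other count minimums, equal depth and each replicate alone.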

Additional observations from a re-analysis of the deposited data

Results flagged for a closer look

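One value outside the measured strand exceeded what a count of 0 allows. Mir335 had 4 counts on the opposite strand in replicate 1, against a limit of 3, beside 765171 on its own strand. In replicate 2 it had 0 opposite counts beside 214490. Mir675 had 2 opposite counts in replicate 1 and 0 in replicate 2, and Mir296, Mir298 and Mir483 had 0 in both. Thus 2 of the 5 had any opposite count, and 11.3% of detected genes did.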

How the results depend on the processing

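No paired analysis was possible because the series has a single group. Levels kept within 1 SD with both strands counted and with TMM or DESeq2 library sizes. For TMM and DESeq2 this was largely fixed in advance, since they lower the total of replicate 1 and raise that of replicate 2. The mean of the 2 libraries then hardly moves, so it does not test the levels against scaling. With Mir143, the most abundant gene, left out of the total, levels were 62644 CPM for Mir335, 5266 CPM for Mir296, 3910 CPM for Mir298, 2447 CPM for Mir483 and 190 CPM for Mir675, and the summed share was 7.45%. With all reads in the table as the total they were 29827, 2507, 1861, 1165 and 90.4 CPM in the same order, and 3.55%. Both follow from the changed denominator, which leaves the order and the ratios as they were. Leaving out 1 replicate gave ranges of 50707 to 54949 CPM for Mir335, 4240 to 4641 for Mir296, 3056 to 3541 for Mir298, 1989 to 2138 for Mir483 and 152 to 167 for Mir675. For the log2 ratios those ranges were 0.39 to 0.47 for Mir296 over Mir298, 3.57 to 3.81 for Mir483 over Mir675 and 2.39 to 2.42 for Mir335 over the other 4. With DESeq2 size factors the adjusted p of the exact binomial test was 0.660 for Mir483 and 0.00147 for Mir675, much as with TMM. Under every alternative run, 4 of the 5 genes passed that test, with Mir675 in place of Mir483 under TMM and DESeq2 scaling, and 0 were more than 25% apart, and no difference changed sign. With replicate 1 thinned to equal depth, the log2 difference of Mir675 was 0.08 (adjusted p = 0.510, exact binomial test). Mir675 had the fewest counts of the 5, with 595 in replicate 2, and so the widest counting interval.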

Other observations

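The hairpins of these microRNAs covered a wide range of base composition. Mir335, the most abundant of the 5, had the lowest share of G and C, 42.9%, and 62 of 319 detected genes with a RefSeq hairpin had a lower one. Mir296 (63.3%), Mir675 (63.1%) and Mir483 (58.9%) were among the richer hairpins, with 293, 291 and 263 detected hairpins below them, and Mir298 held 53.7%. The median detected hairpin had 50%. Predicted folding energies were -56.0 kcal/mol for Mir675, -44.3 for Mir335, -43.2 for Mir296, -42.7 for Mir298 and -33.8 for Mir483. The hairpin with the lowest predicted energy thus belonged to the microRNA with the fewest counts. These totals are not corrected for length, which ran from 73 bases in Mir483 to 98 in Mir335. Per base, Mir675 was again lowest (-0.667 kcal/mol), but Mir335 was the highest of the 5 (-0.452). A relation of energy to counts was not tested.

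Within 1000000 bases of Mir296 and Mir298 no other measured microRNA gene had a count in either library. Around Mir483 and Mir675 the others had at most 11 counts in a library. Mir335 had detected neighbours at a distance, the nearest being Mir29a at 321 kb (51.0 CPM), and Mir183, Mir96 and Mir182 at 572 to 575 kb.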
